A study of Mus musculus with 4 samples.

Results

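The genes described here are Per1, Per2, Per3, Cry1 and Cry2, the negative limb of the circadian clock, with Timeless and Tipin, a pair of replication fork genes often listed beside them. They were chosen by name and not by their measured values, though earlier results of these data were known. They are 7 of the 37310 genes in the deposited table. The data are mRNA-seq of JM8 mouse embryonic stem cells (mESCs), a line of the C57BL6/N strain, comprising 2 wild-type libraries and 2 that carry the label Bmal1-/-. Cells of both labels grew feeder-free on gelatin in serum-free 2i medium with LIF, containing 1 µM of PD0325901 against Mek and 3 µM of CHIR99021 against Gsk3. The Bmal1-/- cells are a single clonal line made with CRISPR/Cas9, in which exon 5 of Bmal1 carries a different frame-shifting indel on each allele. Each label therefore stands for 1 line, and any other difference between the lines cannot be told apart from the genotype. The comparison asks how the genes that oppose Bmal1 in the clock were expressed in pluripotent cells with and without it.

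In cells with a running clock, the transcription factors Bmal1 and Clock bind E-boxes in the promoters of the Period and Cryptochrome genes and switch them on. The Period and Cryptochrome proteins then accumulate, enter the nucleus and repress Bmal1 and Clock, until kinases and ubiquitin ligases have cleared them and a new cycle begins. Timeless and its partner Tipin travel with the replication fork, where they couple the helicase to the polymerases and pass damage signals to the checkpoint kinase Chek1.

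The libraries held between 21504265 and 23329034 reads assigned to genes. Values are the authors' TMM-normalized values, in which 1 read was worth between 0.939 and 1.06. The labelled cell type was checked on 7 pluripotency markers, whose summed value was 109574 and 106840 for wild-type against 115248 and 117440 for Bmal1-/- libraries. In limma 3 of the 7, with Nanog and Tcfcp2l1 among them, were higher and 4 were lower (Pou5f1, Sox2, Zfp42 and Esrrb), with a median log2 fold change of -0.13. The summed values of 5 trophoblast markers were 1518 and 1532 in wild-type against 629 and 606 in Bmal1-/- libraries, and those of 5 neural markers were 3751 and 3487 against 2100 and 1970. Those of 5 fibroblast markers were 69.5 and 75.4 against 111 and 97.3, and those of 5 primitive endoderm markers lay between 165 and 182 in every library. The steady endoderm sum held opposite moves, since in limma Sox7 fell (log2 fold change -2.41) while Sox17 (1.27) and Gata4 (0.55) rose. Tcfap2c made up most of the trophoblast sum, at 1429 and 1444 in wild-type against 576 and 541 in Bmal1-/- libraries. Most of the neural sum was Tubb3, at 2785 and 2512 in wild-type against 1192 and 1088 in Bmal1-/- libraries. Elf5 and Neurog2 of these lists went the other way on few reads, and Nes did not pass in limma. The neural marker Fabp7 was at 0 in all 4 libraries, and the fibroblast marker Postn was at 0 in 3 of them. The trophoblast, neural and fibroblast sums moved with the label (2 of 3 tested markers were lower in each of the first lists, and 1 of 2 tested fibroblast markers was higher, in limma), and their part in the results was not tested. In such bulk samples, fewer cells of a type and less RNA per cell cannot be told apart. The targeted gene Arntl, which encodes Bmal1, was still present as mRNA, with normalized values of 678 and 733 for wild-type and of 556 and 590 for Bmal1-/- cells (log2 fold change -0.30, SE 0.07). This level of mRNA alone does not set the label Bmal1-/- apart from a small change in expression.

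The promoters of the clock members are shown because they hold short words of the kind that Bmal1 and Clock, or the PAR bZIP factors, can bind. A window from 250 bases before to 50 bases after the start site was taken from RefSeq (GRCm38.p6) for every gene in the promoter table, and Per1, Per3, Cry1, Cry2 and Timeless had an entry, which makes 5 of the 7 genes. The words searched on both strands were the E-box CACGTG, the E-prime-box CACGTT, the D-box TTACGTAA or TTATGTAA and the cAMP response element TGACGTCA. The 250 bases before each start site are printed 5′ to 3′ in the direction of transcription, with these words in capitals, and their positions in NCBIM37 (mm9) come from an exact match of the bases to that build. For Per1 the table has a pair of start sites, and the upstream one is shown, which lay 3732 bp inside the annotated gene.
Per1, chr11:68912201-68912450, plus strand: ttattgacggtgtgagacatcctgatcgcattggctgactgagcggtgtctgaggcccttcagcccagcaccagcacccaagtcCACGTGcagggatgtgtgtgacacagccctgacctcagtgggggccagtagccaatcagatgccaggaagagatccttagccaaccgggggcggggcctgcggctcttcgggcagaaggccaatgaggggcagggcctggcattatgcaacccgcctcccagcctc
Per3, chr4:150418775-150419024, minus strand: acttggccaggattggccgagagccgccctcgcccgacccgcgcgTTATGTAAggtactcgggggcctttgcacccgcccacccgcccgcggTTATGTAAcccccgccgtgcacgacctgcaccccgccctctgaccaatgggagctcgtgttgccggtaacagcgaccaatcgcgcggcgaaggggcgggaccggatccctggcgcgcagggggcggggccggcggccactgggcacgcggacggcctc
Cry1, chr10:84647800-84648049, minus strand: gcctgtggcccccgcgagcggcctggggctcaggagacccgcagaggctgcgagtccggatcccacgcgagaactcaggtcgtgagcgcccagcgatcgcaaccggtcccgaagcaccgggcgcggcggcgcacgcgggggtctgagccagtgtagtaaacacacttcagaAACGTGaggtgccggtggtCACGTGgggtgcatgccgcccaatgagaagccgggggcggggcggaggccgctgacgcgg
Cry2, chr2:92274227-92274476, minus strand: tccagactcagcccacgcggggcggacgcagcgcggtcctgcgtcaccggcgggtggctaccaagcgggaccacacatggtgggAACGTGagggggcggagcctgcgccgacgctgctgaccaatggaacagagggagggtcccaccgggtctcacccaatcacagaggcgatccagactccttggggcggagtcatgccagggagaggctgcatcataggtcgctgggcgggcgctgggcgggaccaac

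Per1 held an E-box at -166 to -161 from the start site. Cry1 held an E-box at -60 to -55 and, 19 bases upstream of it, an E-prime-box read on the opposite strand. Cry2 held an E-prime-box on the opposite strand at -166 to -161 and no E-box. Per3 held neither of these words but a pair of D-boxes, TTATGTAA, whose first bases were 47 bases apart. The window of Timeless, whose start site lay 6003 bp inside the annotated gene, held a D-box at -157 to -150. The second Per1 window held none of these words. Of all 32851 windows in the table, 7.15% held an E-box, 4.68% an E-prime-box, 1.06% a D-box and 1.79% a cAMP response element. These matches describe letters in a window and not bound sites.

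The Cryptochromes are the repressors that bind the Bmal1 and Clock complex directly, and both were higher in the libraries labelled Bmal1-/-. Cry1 (ENSMUSG00000020038, chr10:84594447-84647799, minus strand) had normalized values of 654 and 621 in the wild-type libraries and of 1268 and 1212 in the Bmal1-/- libraries. Both Bmal1-/- libraries stood above both wild-type libraries, and the difference between the labels was far larger than that between replicates. The mean normalized value was 638 ± 23.2 (SD, n = 2) in wild-type and 1240 ± 39.7 (SD, n = 2) in Bmal1-/- cells, a ratio of 1.94. The log2 fold change of Cry1 was 0.96 (SE 0.06, 95% confidence interval 0.83 to 1.08), with an adjusted p of 5.4e-11 in limma. On the linear scale that interval runs from 1.78-fold to 2.12-fold, so that these data do not place Cry1 on either side of a 2-fold change.

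Cry2 (ENSMUSG00000068742, chr2:92243803-92274200, minus strand) had normalized values of 514 and 472 in the wild-type libraries and of 692 and 608 in the Bmal1-/- libraries. The labels did not overlap, but the gap was narrower than for Cry1. The mean normalized value was 493 ± 30.0 (SD, n = 2) against 650 ± 59.4 (SD, n = 2), a ratio of 1.32. Its log2 fold change was 0.40 (SE 0.08, 95% confidence interval 0.24 to 0.56), with an adjusted p of 2.1e-04 in limma. An antisense gene inside Cry2, D930015M05Rik, had between 3 and 13 reads in a library, beside between 444 and 737 for Cry2, and whether the counting used strand is not given in the sources used here.

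The balance between the paralogs was also compared within each library. The ratio of Cry1 to Cry2 normalized values within a library was 1.27 and 1.32 in wild-type and 1.83 and 1.99 in Bmal1-/- cells. Both Bmal1-/- ratios were above both wild-type ratios, a log2 difference of 0.56. With 2 libraries a label, the exact permutation test over the 6 splits gave a two-sided p of 0.333, the smallest it can give. The ratio was 1 of 4 computed between members, and the labels overlapped in the other ones.

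The Period proteins bring the casein kinases into the repressor complex and are the limb's clock-resetting members in other tissues. None of the 3 Period genes passed in limma, edgeR or DESeq2, and 1, Per2, had an unadjusted p under 0.05 in limma. Per1 (ENSMUSG00000020893, chr11:68908719-68923462, plus strand) had normalized values of 489 and 374 in the wild-type libraries and of 481 and 469 in the Bmal1-/- libraries. The Bmal1-/- values lay between the wild-type values, so the labels overlapped, and the spread came from the wild-type pair. The mean normalized value was 431 ± 81.2 (SD, n = 2) against 475 ± 8.35 (SD, n = 2). The log2 fold change of Per1 was 0.15 (SE 0.10, 95% confidence interval -0.05 to 0.35), with an adjusted p of 0.198 in limma. Without wild-type replicate 1 it became 0.34, and without wild-type replicate 2 it became -0.041, so that the sign turned on a wild-type library. Each of these fits had 1 wild-type library, so the wild-type spread was left out of its error.

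Per2 (ENSMUSG00000055866, chr1:93312561-93355907, minus strand) was counted only a few times, with 9 and 14 reads in wild-type and 27 and 18 reads in Bmal1-/- libraries. In normalized values these were 9.48 and 14.9 against 25.4 and 17.2, and the labels did not overlap. The mean normalized value was 12.2 ± 3.81 (SD, n = 2) against 21.3 ± 5.80 (SD, n = 2). On the log2 scale Per2 differed by 0.76 (SE 0.36, 95% confidence interval 0.01 to 1.52), with an unadjusted p of 0.0484 and an adjusted p of 0.084 in limma. That interval runs from almost no change to more than a 2-fold rise. Without wild-type replicate 2 the value was 1.06, and without wild-type replicate 1 it was 0.46. Each of these fits had 1 wild-type library, so no p-value is given.

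Per3 (ENSMUSG00000028957, chr4:150377761-150418774, minus strand) was also at a low level, with normalized values of 28.4 and 24.4 in the wild-type libraries and of 24.4 and 31.5 in the Bmal1-/- libraries. The labels overlapped. The fitted log2 fold change of Per3 was 0.07 (SE 0.27, 95% confidence interval -0.50 to 0.64), with an adjusted p of 0.848 in limma. A change within that interval was not detectable at this depth, and the sign turned to -0.21 after quantile normalization and to -0.11 without Bmal1-/- replicate 2.

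Timeless and Tipin both fell in the libraries labelled Bmal1-/-. Timeless (ENSMUSG00000039994, chr10:127669119-127689997, plus strand), the larger subunit of the fork protection complex, had normalized values of 3147 and 2986 in the wild-type libraries and of 2618 and 2569 in the Bmal1-/- libraries. Both Bmal1-/- libraries were below both wild-type libraries. The mean normalized value was 3066 ± 114 (SD, n = 2) against 2594 ± 34.7 (SD, n = 2), or 84.6% of wild-type. The log2 fold change of Timeless was -0.24 (SE 0.05, 95% confidence interval -0.34 to -0.15), with an adjusted p of 1.5e-04 in limma. Gm17292, an antisense gene over the start of Timeless, had between 5 and 10 reads in a library.

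Tipin (ENSMUSG00000032397, chr9:64129414-64152599, plus strand), which stabilises Timeless, had normalized values of 4174 and 4465 in the wild-type libraries and of 3284 and 3498 in the Bmal1-/- libraries. Its labels did not overlap. The mean normalized value was 4319 ± 206 (SD, n = 2) against 3391 ± 151 (SD, n = 2), or 78.5% of wild-type. For Tipin the log2 fold change was -0.35 (SE 0.05, 95% confidence interval -0.45 to -0.25), with an adjusted p of 2.7e-06 in limma. The ratio of Timeless to Tipin normalized values was 0.754 and 0.669 in wild-type and 0.797 and 0.734 in Bmal1-/- cells. These ratios overlapped, and the exact permutation p was 0.667.

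**Figure D1:**
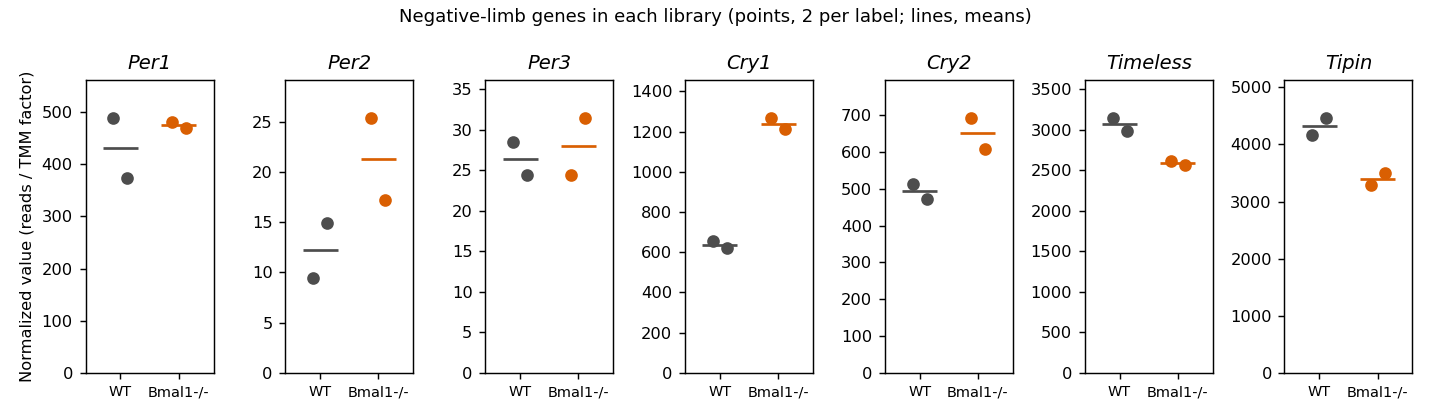
Normalized value (reads divided by the TMM factor, linear axis from 0) of each of the 7 genes in the 2 wild-type and 2 Bmal1-/- libraries, with a point for each library and a line at the mean of each label. Cry1 rose from 654 and 621 to 1268 and 1212, Timeless and Tipin fell, and the Per1 points of Bmal1-/- cells lie between those of wild-type cells.

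Set against the whole table, the members were called about as often as other genes. Of the 7 members, 4 passed an adjusted p under 0.05 in limma, beside 52.6% of the 14510 genes tested. Cry1 and Cry2 were 2 members higher in Bmal1-/- libraries, beside 24% of all genes, and Timeless and Tipin were 2 members lower, beside 28.6%. Of the members, 5 had libraries that did not overlap between the labels, beside 76% of all genes. With all 4 libraries and the authors' scaling, no member passed both the test and a 2-fold change in limma, beside 7.21% of all genes, and none did in edgeR or DESeq2 on the recovered reads. Cry1 passed both with equal library totals (1.02).

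The sizes place the members more clearly than the calls. Of the genes tested, 894 had a higher log2 fold change than Cry1, which is 6.16%, and 17.8% had a higher value than Cry2. A lower value than that of Timeless was found for 24.0% of genes and a lower value than that of Tipin for 14.0%. The median log2 fold change over all genes tested was -0.03. Of all calls, 45.7% were higher in Bmal1-/- libraries, and this share was 56.8% with equal library totals, under which the log2 fold changes were 1.02 for Cry1, 0.46 for Cry2, -0.18 for Timeless and -0.29 for Tipin.

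**Figure D2:**
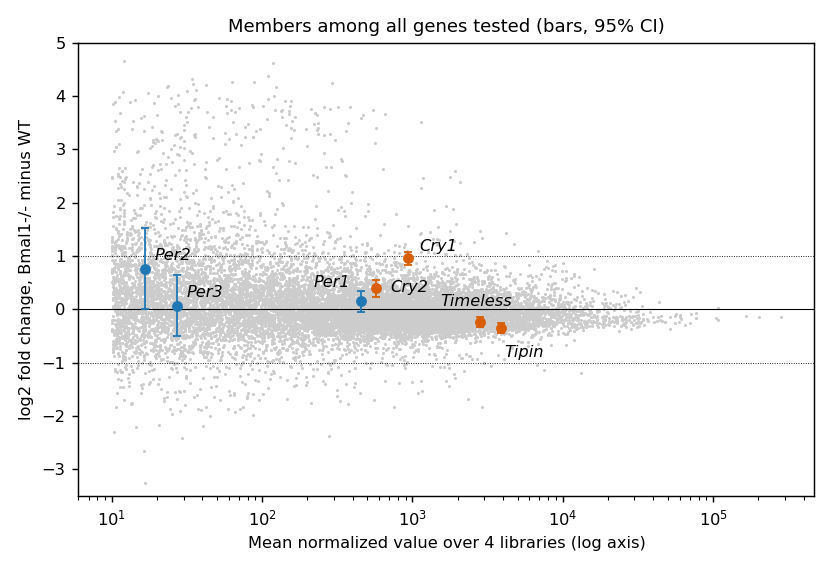
Log2 fold change (Bmal1-/- minus wild-type) against the mean normalized value over 4 libraries (log axis) for the 14510 genes tested in grey, with the 7 members on top and their 95% confidence intervals as bars (orange, adjusted p under 0.05 in limma, and blue for the rest). Cry1 at 0.96 lies just under the dotted line at 1, and the intervals of Per2 and Per3 are wide and rest on few reads.

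The direction of both Cryptochromes, Timeless and Tipin was the same under the 15 alternatives reported in scaling, filter, pseudocount, tool and libraries. Settings that changed only the filter, the trend or the replicate block could not move a fold change, so they bear on the calls alone. Cry1 ranged from 0.92 to 1.02, and with all 4 libraries it passed in each. Cry2 ranged from 0.30 to 0.49, Tipin from -0.40 to -0.29 and Timeless from -0.28 to -0.18. With all 4 libraries these 3 genes passed except with no filter on low values. Without the trend they passed only narrowly in limma, at an adjusted p of 0.0496 for Cry2, 0.046 for Timeless and 0.034 for Tipin. Cry1 was then at an adjusted p of 0.0067 in limma.

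**Figure D3:**
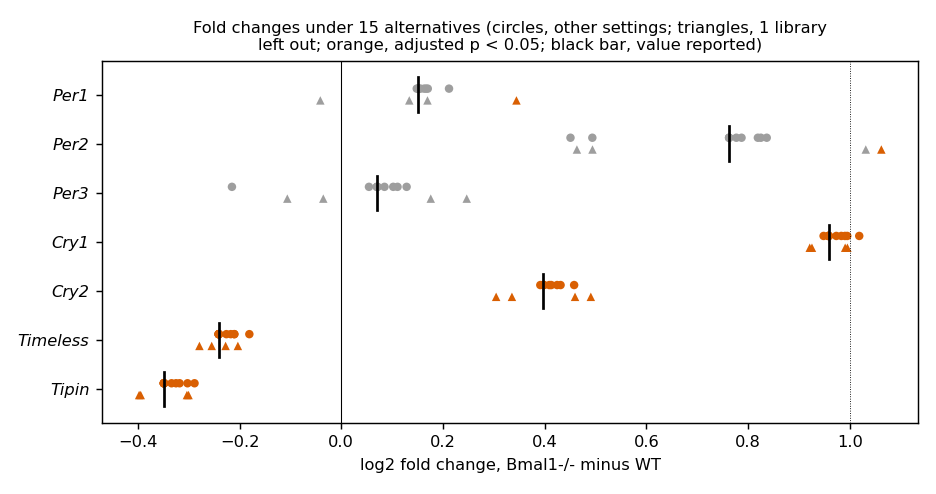
Log2 fold change (Bmal1-/- minus wild-type) of each member as reported (black bar) and under 15 alternatives, or 14 for Per2 and Per3 (circles, other settings, and triangles, 1 library left out), in orange where the adjusted p was under 0.05. The points of Cry1, Cry2, Timeless and Tipin stay on their side of 0, while those of Per1 and Per3 lie on both sides. A triangle leaves 1 library for its label, so its colour rests on the spread of the other label and of other genes.

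Levels of different genes were compared only after division by the union length of their exons, as normalized values per kilobase. On that scale the 7 genes spanned from 2.08 to 3567 in wild-type cells. Tipin had a level of 3567 ± 170 (SD, n = 2) per kilobase, its mean over 4 libraries being above that of 97.4% of genes tested, and Timeless had 501 ± 18.6 (SD, n = 2). Cry1 followed at 212 ± 7.69 (SD, n = 2), then Cry2 at 78 ± 4.75 (SD, n = 2) and Per1 at 76.6 ± 14.4 (SD, n = 2). Per3 at 2.75 ± 0.295 (SD, n = 2) and Per2 at 2.08 ± 0.653 (SD, n = 2) were lower than nearly all genes tested, at percentiles 1.72 and 1.78 of the mean level over 4 libraries. Neighbours in that order were further apart than their spread except for Cry2 with Per1 and Per3 with Per2.

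In Bmal1-/- cells the order at the top drew together. Cry1 reached 421 and 402 per kilobase, next to 428 and 420 for Timeless, so that these levels overlapped, whereas in wild-type cells Timeless stood at 514 and 488 and Cry1 at 217 and 206. Divided by the longest annotated transcript instead, the Bmal1-/- means were 567 for Timeless and 411 for Cry1, so that the nearness of these levels depends on the length used. Per2 and Per3 exchanged places within their spread, at 3.64 ± 0.993 (SD, n = 2) and 2.91 ± 0.518 (SD, n = 2) per kilobase. Cry2 reached 103 ± 9.39 (SD, n = 2) and Per1 84.4 ± 1.48 (SD, n = 2).

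Summed per kilobase, the Cryptochrome pool was 298 and 281 in wild-type and 530 and 498 in Bmal1-/- libraries. The Period pool was 91.4 and 71.5 in wild-type and 92.3 and 89.5 in Bmal1-/- libraries, and between 92.5% and 95% of it was Per1 in each library. The first sum was higher in both Bmal1-/- libraries without overlap, and the second was not separated from its wild-type spread. Cryptochrome mRNA was therefore 3.27 and 3.93 times the Period mRNA in wild-type cells and 5.75 and 5.57 times in Bmal1-/- cells. Cry1 made up 72.7% and 73.4% of the Cryptochrome pool in wild-type and 79.3% and 80.7% in Bmal1-/- libraries. The activators, as the sum of Arntl and Clock, stood at 368 and 377 per kilobase in wild-type and at 352 and 364 in Bmal1-/- libraries. Within that sum Clock rose (log2 fold change 0.30, adjusted p 1.0e-04 in limma) while Arntl fell (-0.30, adjusted p 0.0011 in limma). The ratio of the Cryptochrome pool to that sum was 0.810 and 0.746 in wild-type and 1.51 and 1.37 in Bmal1-/- libraries. The Arntl mRNA of the mutant line carries frame-shifting indels, however. The pools and their ratios rest on union exon length alone. Divided by the longest transcript, Cry2 in wild-type was at 124 per kilobase in place of 78, and the pools were not recomputed on that length. All these values are levels of mRNA, and protein was not measured in these files.

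**Figure D4:**
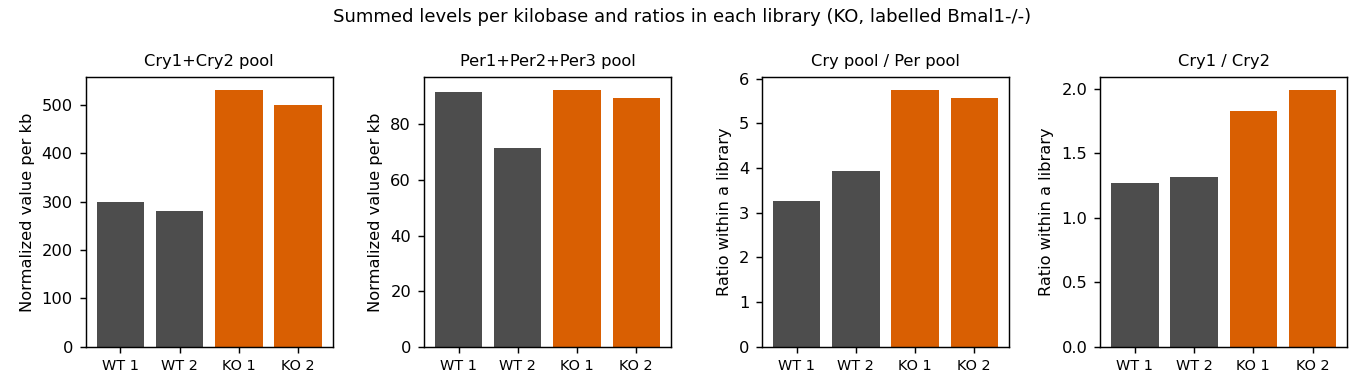
Summed normalized values per kilobase of Cry1 and Cry2, and of Per1, Per2 and Per3, and the ratios of the Cryptochrome to the Period pool and of Cry1 to Cry2, as bars from 0 for each of the 4 libraries (grey wild-type, orange Bmal1-/-). The Cryptochrome bars rise from 298 and 281 to 530 and 498, while the Period bars of Bmal1-/- libraries stay level with the first wild-type library.

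Genes that act around the negative limb were followed in hand-written lists, against the same shares of all genes called. Of 16 transcription factors of the clock, 13 were tested, 6 were higher, 3 were lower and 4 did not pass, with a median log2 fold change of 0.30. The targeted gene Arntl is in this list and was among the lower ones. Npas2, a paralog of Clock, rose from normalized values of 25.3 and 17.0 to 59.2 and 53.4 (adjusted p 1.1e-04 in limma, with a log2 fold change of 1.4). Arntl2, the paralog of Bmal1, rose from 24.2 and 23.4 to 33.8 and 50.5 (adjusted p 0.018 in limma, with a log2 fold change of 0.77). Both remained at low values in Bmal1-/- cells. Bhlhe40, a repressor that competes for E-boxes, fell from 462 and 551 to 302 and 329 (adjusted p 2.9e-06 in limma, with a log2 fold change of -0.68). Nr1d2, an orphan nuclear receptor that represses Bmal1 and Cry1, fell from 635 and 556 to 426 and 496 (adjusted p 0.0010 in limma, with a log2 fold change of -0.37). After quantile normalization 3 factors of this list were higher and 3 lower.

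The list of kinases that phosphorylate Period or Cryptochrome proteins held 11 genes, with the regulatory subunit gene Csnk2b among them. All were tested, and 3 were higher, 1 was lower and 7 did not pass, with a median log2 fold change of -0.0015. Csnk1e, the casein kinase that marks Period proteins for destruction, rose from normalized values of 1597 and 1610 to 2395 and 2339 (adjusted p 5.0e-09 in limma, with a log2 fold change of 0.56). Its close paralog Csnk1d did not pass (adjusted p 0.11 in limma, with a log2 fold change of -0.09). Prkaa2, a catalytic subunit of the AMP-activated kinase that phosphorylates Cryptochromes, rose from 593 and 544 to 848 and 935 (adjusted p 1.7e-07 in limma, with a log2 fold change of 0.65). Csnk2b, the regulatory subunit of casein kinase 2, fell from 3005 and 3100 to 2589 and 2579 (adjusted p 1.2e-04 in limma, with a log2 fold change of -0.24).

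Of 9 genes that add or remove ubiquitin on these proteins, 3 were higher, 2 were lower and 4 did not pass, with a median log2 fold change of 0.03. Btrc, which recognises phosphorylated Period proteins, rose from normalized values of 1000 and 1092 to 1333 and 1260 (adjusted p 1.6e-04 in limma, with a log2 fold change of 0.31). It is a substrate receptor of a ligase whose adaptor Skp1a fell from 10349 and 11002 to 7561 and 8045 (adjusted p 2.5e-08 in limma, with a log2 fold change of -0.45) and whose scaffold Cul1 was only just under the threshold (adjusted p 0.042 in limma, with a log2 fold change of -0.10). Under each of the other 3 scalings 1 gene of this list was lower in place of 2. Of 7 nuclear partners of the repressor complex, 1 was higher, 1 was lower and 5 did not pass, with a median of 0.03. These were the helicase Ddx5 (adjusted p 0.026 in limma, with a log2 fold change of 0.11) and the deacetylase Hdac1 (adjusted p 0.0020 in limma, with a log2 fold change of -0.15), and 3 partners were higher and 1 lower with equal library totals.

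The 28 genes that work beside Timeless and Tipin at the fork were all tested. Of these, 3 were higher, 11 were lower and 14 did not pass, with a median log2 fold change of -0.07. The balance of this list turned with some scalings. With equal library totals 8 were higher and 7 lower, and after quantile normalization 5 were higher and 6 lower. With median-ratio size factors the balance stayed at 3 higher and 11 lower. Of all calls, 45.7% were higher with the authors' scaling. That share was 56.8% with equal library totals, 44.8% after quantile normalization and 48.2% with median-ratio size factors. Rpa3, the small subunit of the single-strand binding protein RPA, fell from normalized values of 1312 and 1426 to 1061 and 1025 (adjusted p 8.9e-06 in limma, with a log2 fold change of -0.39). Gins1, a subunit of the helicase complex, fell from 1354 and 1291 to 1014 and 1038 (adjusted p 1.2e-05 in limma, with a log2 fold change of -0.37). Atr, the kinase that responds to stalled forks, rose from 1583 and 1577 to 1991 and 2077 (adjusted p 3.2e-06 in limma, with a log2 fold change of 0.36). Pole, the leading-strand polymerase, rose by less (adjusted p 0.0025 in limma, with a log2 fold change of 0.16).

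Of 8 genes that answer glucocorticoid or cAMP, signals that also induce Per1 in other tissues, 1 was higher, 3 were lower and 4 did not pass, with a median log2 fold change of -0.14. Klf9, a zinc finger factor, rose from normalized values of 2200 and 2005 to 3496 and 3511 (adjusted p 1.1e-10 in limma, with a log2 fold change of 0.74). Nr4a1, an immediate early nuclear receptor, fell from 763 and 751 to 614 and 593 (adjusted p 2.7e-04 in limma, with a log2 fold change of -0.33). Fkbp5, a chaperone partner of the glucocorticoid receptor, fell from 5648 and 5621 to 4757 and 4783 (adjusted p 3.6e-05 in limma, with a log2 fold change of -0.24).

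Genes with the same promoter words as the members were compared as a whole. Of the genes tested, 1261 had an E-box in a RefSeq window, and 22.4% of these were higher and 35.2% lower in Bmal1-/- libraries, with a median log2 fold change of -0.07. Of the 10771 tested genes with any window, 23.8% were higher and 30.4% lower, with a median of -0.04. The 91 genes with both an E-box and an E-prime-box, as Cry1 has, were higher in 14.3% and lower in 36.3%. Cry1, with both words, and Cry2, with an E-prime-box, rose, whereas Per1, with an E-box, did not pass. The 93 genes with a D-box were higher in 30.1% and lower in 31.2%. These shares are descriptions of groups that overlap, and no test was run on them.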

How the data were processed

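Per the labels, mRNA libraries of both genotypes were made with a stranded kit from total RNA. The submitters' processing notes name bcl2fastq 2.18.0.12, cutadapt 1.9.1, STAR 2.5.2b and mm9. The counting tool, its annotation and its use of strand are not given in the sources used here. The authors deposited a normalized signal per gene, read counts divided by a TMM factor for each library made with NOISeq, and 100% of values came back as whole reads within 0.01 of a read. Coordinates and exon lengths are from GENCODE on NCBIM37 (mm9).

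Testing was limited to genes whose values averaged 10 or more over all 4 libraries, in limma 3.58.1 (R 4.3.3) on log2(value + 1), with an intensity trend and Benjamini-Hochberg adjustment over 14510 genes, at an adjusted p under 0.05. The added 1 shrinks the fold changes of low genes. Of the 7 members, 7 passed the filter. limma was used because the deposited values are normalized, and edgeR 4.0.16 and DESeq2 1.42.0 on the recovered reads were alternatives. The scripts were tested on simulated data. The members and the gene lists, which were written by hand (3 genes are in the table under older symbols), were chosen with earlier results of these data known.

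Genes named are the members, Arntl, of each list the 2 highest and 2 lowest log2 fold changes among called genes, the gene most like each member, and overlapping or neighbouring genes. Csnk1d and the counts by scaling were added after their values were seen. Replicates differed by more than sampling noise (chi-square per degree of freedom 2.95 in wild-type and 1.94 in Bmal1-/- libraries). The study's methods call them biological replicates, and p-values reflect only spread between cultures of these lines. In limma a gene's own spread was pooled with a prior drawn from all genes tested (18.1 prior degrees of freedom). Its p-values therefore do not measure the spread of that gene's replicates alone. The labels number the experiments 1 and 2 within each genotype and do not say what a number shares, and they name no other batch. A gene of the ubiquitin list and 1 planned scaling alternative are not reported here. Annotated transcripts of the members matched no other locus in NCBIM37 (21 of 21 matched their own locus alone).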

Additional observations from a re-analysis of the deposited data

How the results depend on the processing

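The 7 fold changes and the list counts were recomputed under 15 alternatives, except that Per2 and Per3 were below the filter at a mean of 100. Cry1 ranged from 0.92 to 1.02 and passed in all of those with 4 libraries (highest adjusted p 0.022 in limma). With no filter on low values, 2222 of the 37310 genes then tested were called, in place of 7639 of 14510. Of those 37310 genes, 13712 were at 0 in every library. In that fit Cry2 (0.40, adjusted p 0.19), Timeless (-0.24, adjusted p 0.095) and Tipin (-0.35, adjusted p 0.11) no longer passed in limma, which left 1 member. On the recovered reads, edgeR called 7682 genes and DESeq2 5226, and each called the same 4 members. With no filter the lists held 1 call among clock factors, 2 among kinases, 0 among ubiquitin genes, 0 among nuclear partners and 4 among fork genes. With the filter at a mean of 100, 5 of the 8 clock factors still tested were called, beside 6401 of all 10486 genes. Without the trend, limma called 5060 genes, 3 ubiquitin genes, 0 nuclear partners and 5 fork genes. Nuclear partners numbered 4 with equal library totals and 4 after quantile normalization, which turned Per3 to -0.21.

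With each library left out in turn, the log2 fold change ranged from -0.041 (without wild-type replicate 2) to 0.34 for Per1, from 0.46 to 1.06 for Per2 and from -0.11 to 0.25 for Per3, including -0.035 for Per3 without wild-type replicate 2. Each of these fits had 1 library for the label concerned, so its error came from the other label's pair and the spread shared over genes. Deviations of same-numbered libraries had a correlation of -0.02 across genes, so the replicate numbers were not taken to pair the libraries. The fit with the replicate block called 4 members, with Cry1 at 0.96, and changed the call of no member. The wild-type level per kilobase over the longest transcript was 671 for Timeless, 124 for Cry2, 92.4 for Per1 and 4.41 for Per3, in the same order. With 2 libraries a label no ratio could reach an exact permutation p under 0.333, and few reads limit Per2 and Per3.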

Other observations

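The tested gene whose profile over the 4 libraries was most like that of each member was sought among 10485 genes with a mean of at least 100, or 10486 for Per2 and Per3, which are not among them. The measure was the root mean square difference of centred log2 values. Trim7 was most like Cry1 (difference 0.013), at normalized values of 235 and 222 for wild-type against 446 and 437 for Bmal1-/- libraries. Dhrs4 was most like Timeless (difference 0.0045), Wdr73 most like Tipin (0.0070) and Man2a2 most like Cry2 (0.016). Dsel was most like Per1 (0.032), Dleu2 most like Per3 (0.027) and Sh3gl3 most like Per2 (0.18), the widest of the 7 differences.

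Genes next to the members on the chromosome moved in both directions. Mterfd3, 3701 bp from Cry1, went from normalized values of 195 and 205 to 161 and 175, which did not pass (log2 fold change -0.25, adjusted p 0.064 in limma). Slc35c1, 18721 bp upstream of Cry2, rose (log2 fold change 0.35, adjusted p 0.0041 in limma), and Mapk8ip1 on the other side did not pass (-0.08, adjusted p 0.46 in limma). Vamp2, 2833 bp from Per1, fell (-0.21, adjusted p 0.0088 in limma). Map2k1 and Dis3l beside Tipin did not pass (-0.05 and 0.15, adjusted p 0.39 and 0.092 in limma), nor did Hes6, Traf3ip1 and Vamp3 beside Per2 and Per3 or Mip beside Timeless.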
